A study of Homo sapiens with 6 samples.

Results

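The genes described here are 9 parts of the urokinase system and its serpins: the activators PLAU and PLAT, the urokinase receptor gene PLAUR, and the serpin genes SERPINE2, SERPINB2, SERPINB5, SERPINB6, SERPINB8 and SERPINB9. They were taken as the rows with exactly these symbols, 9 of 28278 in each count table, and 8 of them passed the filter on low counts. Plasminogen is a circulating proenzyme that the activators cut into plasmin, a broad protease that degrades fibrin and matrix. Urokinase does this mainly at the surface of cells that carry its receptor, and serpins trap such proteases by offering a reactive loop as bait and then locking the enzyme in a dead complex. In colon carcinoma the urokinase system is known for its part in invasion at the tumour edge.

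Total RNA of human RKO cells, a line established from a poorly differentiated colon carcinoma, was sequenced in 2 arms after removal of ribosomal RNA. The shTRIM21 arm carried lentiviral shRNA against TRIM21, an E3 ubiquitin ligase that binds antibodies, and the shControl arm carried scrambled lentiviral shRNA; the labels call the second arm WT. Both arms were selected with puromycin at 5 µg/ml starting 36 h after infection, and each gave 3 libraries. The titles call the libraries biological replicates, but how many shRNA sequences, clones or infections stand behind an arm is not stated, so p-values measure the spread between these libraries, which may be technical.

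Libraries held 33499827 to 38051662 counts in shTRIM21 and 33829727 to 44466137 in shControl, of which ribosomal RNA took 16.99% to 23.5% and 14.7% to 36.9%. TRIM21 itself had 299, 271 and 297 counts in the shTRIM21 libraries, against 459, 421 and 343 in the shControl libraries, and fell by 31.3% (edgeR adjusted p = 0.00424). This call was lost with library sizes alone, that is, with no TMM factors (log2 fold change -0.34, edgeR adjusted p = 0.197, in a range of 0.000399 to 0.197 over 17 alternatives). The source field of the labels names mouse tissue, whereas organism, line and symbols are human. Epithelial markers were abundant: KRT8 averaged 2501 ± 54.9 CPM in shTRIM21 and 3384 ± 232 CPM in shControl, and EPCAM 198 ± 5.42 and 180.1 ± 19.6 CPM (SD, n = 3 each). Of 8 epithelial and RKO markers 4 fell, the keratin genes KRT8, KRT18 and KRT19 and the mesenchymal marker VIM (log2 fold change -1.07), and 1 rose, the epithelial cadherin gene CDH1 (0.57). Over all genes tested, 11.0% were lower and 9.77% higher. The summed level of the 8 markers was 4640 to 4881 CPM in shTRIM21 and 5974 to 6642 CPM in shControl. Most of it was KRT8, KRT18 and KRT19, while EPCAM, VIL1 and CDX2 were not called. Blood-cell markers summed to 6.37 to 7.36 CPM and 7.78 to 8.90 CPM, most of it CD68, which epithelial cells also express, while CD3E and GZMB were listed at 0. Fibroblast markers summed to 10.5 to 11.1 CPM in shTRIM21 and 6.15 to 9.19 CPM in shControl, nearly all COL1A1, with DCN, LUM and THY1 listed at 0. Endothelial markers summed to under 1 CPM in every library, and CDH5 was listed at 0. The part of these markers in the results below was not tested. In bulk RNA, fewer cells of a type and less RNA per cell cannot be told apart.

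Of the 8 tested members, 4 fell in shTRIM21 and 0 rose: the urokinase gene PLAU, its receptor PLAUR, the secreted inhibitor SERPINE2 and the intracellular serpin SERPINB8. The falls ran from 1.29-fold for PLAUR to 1.56-fold for PLAU. PLAT, SERPINB5, SERPINB6 and SERPINB9 were not called, and SERPINB2 was listed at 0 in all 6 libraries. With the quasi-likelihood F test of edgeR, at an adjusted p under 0.05, 20.8% of the 15131 genes tested were called; 11.0% were lower and 9.77% higher, each as a share of the genes tested. The median log2 fold change was -0.25 over the 8 members and 0.0054 over all tested genes. The groups did not overlap for 5 of the 8 members, the fallen genes and SERPINB9, against 37.7% of all tested genes. With library sizes alone, 0 members were called. Without shControl replicates 1 and 3, the libraries richest in ribosomal RNA and left out by a choice made after seeing the data, PLAU and SERPINE2 were called and PLAUR and SERPINB8 were not.

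**Figure D1:**
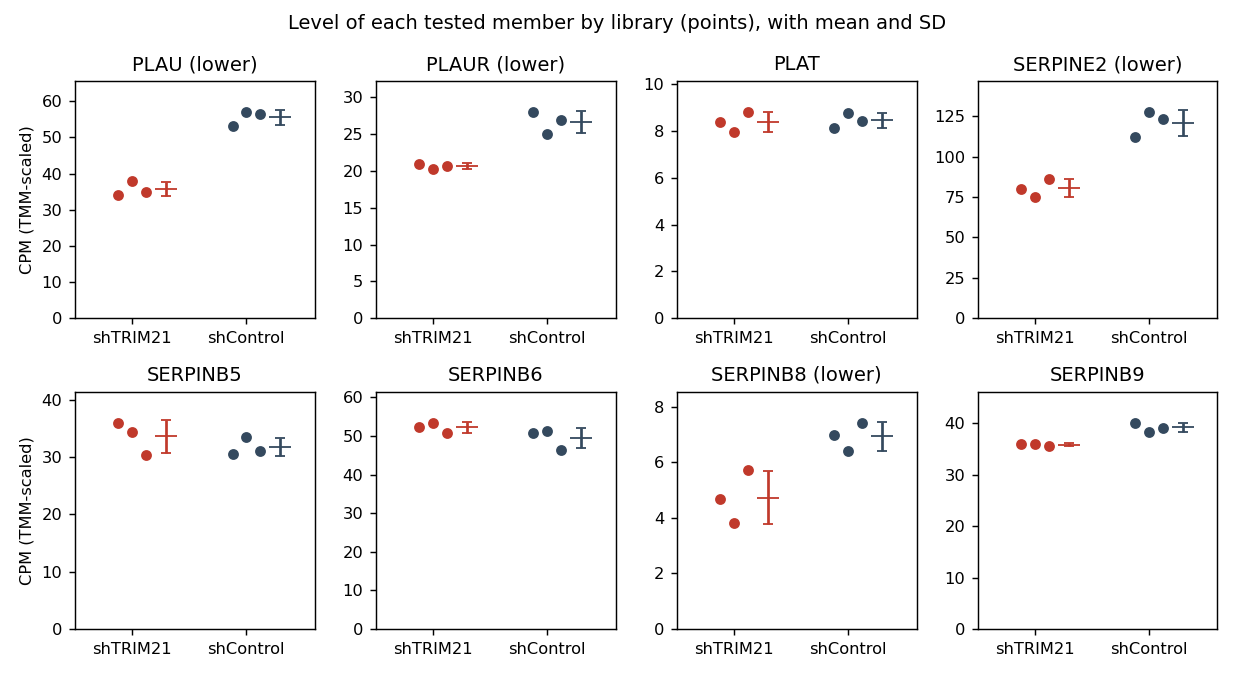
Scaled level in CPM of the 8 tested members in each library; points are the 3 libraries of shTRIM21 (left, red) and of shControl (right, dark), and the bar beside them is the mean with its SD. The groups are apart for PLAU, PLAUR, SERPINE2, SERPINB8 and SERPINB9 and overlap for PLAT, SERPINB5 and SERPINB6.

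PLAU encodes urokinase, the secreted serine protease that activates plasminogen at the cell surface, and lies on chromosome 10 from 73908832 to 73917494 (GRCh38.p14). Counts for PLAU were 1281, 1485 and 1326 in the shTRIM21 libraries, against 2001, 2096 and 2048 in the shControl libraries. After scaling, the levels were 34.1, 37.9 and 35.03 CPM in shTRIM21, against 53.01, 57.03 and 56.5 CPM in shControl. Every shTRIM21 library was thus below every shControl library, with a gap wider than the range within either group. PLAU averaged 35.7 ± 1.97 CPM in shTRIM21 and 55.5 ± 2.19 CPM in shControl (SD, n = 3 each), a fall of 35.7% (log2 fold change -0.64, SE 0.064, edgeR adjusted p = 6.94e-06), a call lost with library sizes alone. Among all tested genes, 2.10% had a more negative log2 fold change.

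PLAU shares its locus with C10orf55, a long non-coding RNA gene on the opposite strand at 73909969 to 73922777. Whether the counting used strand is not given in the sources used here, so reads of the pair may be shared. C10orf55 also fell, to 9.28 ± 0.789 CPM in shTRIM21, against 14.7 ± 1.68 CPM in shControl (SD, n = 3 each; log2 fold change -0.66, SE 0.11, edgeR adjusted p = 0.000584). Its counts were 0.265, 0.268 and 0.247 of those of PLAU in the shTRIM21 libraries and 0.253, 0.291 and 0.248 of them in the shControl libraries. These shares overlapped between the groups. The nearest protein-coding neighbour tested, the kinase gene CAMK2G, was not called at a log2 fold change of 0.085 (95% interval -0.067 to 0.24).

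PLAUR encodes the urokinase receptor, a protein held in the membrane by a lipid anchor, and lies on chromosome 19 from 43646095 to 43670169. It had 20.97, 20.2 and 20.7 CPM in the shTRIM21 libraries, against 28.003, 25.1 and 26.9 CPM in the shControl libraries. The shTRIM21 libraries were nearly alike and all lower than the lowest shControl library, replicate 2. PLAUR averaged 20.6 ± 0.369 CPM in shTRIM21 and 26.7 ± 1.49 CPM in shControl (SD, n = 3 each), a fall of 22.6% (log2 fold change -0.37, SE 0.074, edgeR adjusted p = 0.00272). Without shControl replicates 1 and 3 the PLAUR change shrank to -0.29 and lost its call (adjusted p = 0.086 in edgeR, in a range of 0.000336 to 0.562 over 17 alternatives).

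The promoters of PLAU and PLAUR are shown because both genes fell and because both are textbook targets of the AP-1 transcription factors, dimers of FOS and JUN proteins. Windows of 300 bases, 250 before and 50 from the start site on, came from RefSeq (GRCh38.p14), which held 8 of the 9 members, without PLAT. They were searched on both strands for the AP-1 word TGANTCA, the TEAD word GGAATG and the SP1 word GGGCGG. Of 35116 human windows, 7.71% held the AP-1 word, 14% the TEAD word and 45% the SP1 word. Capitals below mark these words. The PLAUR window, chr19:43670120-43670419 on the minus strand, held the AP-1 word once, its first base at position -186 from the start site. The PLAU window at the more downstream of the 2 starts listed, chr10:73910882-73911181 on the plus strand, held the SP1 word 3 times and the AP-1 word 0 times; the other PLAU window held none of the words. The best known AP-1 sites of PLAU lie in an enhancer farther upstream, outside these windows.
PLAUR: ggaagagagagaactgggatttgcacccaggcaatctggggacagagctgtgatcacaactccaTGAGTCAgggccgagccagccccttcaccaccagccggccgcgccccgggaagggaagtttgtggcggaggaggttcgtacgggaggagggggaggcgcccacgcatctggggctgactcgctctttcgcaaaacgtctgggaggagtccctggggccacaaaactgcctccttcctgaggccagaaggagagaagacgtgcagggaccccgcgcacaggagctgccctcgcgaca
PLAU: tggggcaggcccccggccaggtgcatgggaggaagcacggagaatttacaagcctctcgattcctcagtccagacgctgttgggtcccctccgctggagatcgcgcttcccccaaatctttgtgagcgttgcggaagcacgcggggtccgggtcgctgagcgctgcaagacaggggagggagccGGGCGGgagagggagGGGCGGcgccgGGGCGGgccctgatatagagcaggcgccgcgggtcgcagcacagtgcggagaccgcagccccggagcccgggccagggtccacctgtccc

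PLAT encodes tissue-type plasminogen activator, which acts mainly on fibrin, and lies on chromosome 8 from 42174718 to 42207565. It had 8.39, 7.97 and 8.82 CPM in the shTRIM21 libraries, against 8.16, 8.79 and 8.45 CPM in the shControl libraries. The groups overlapped fully, and PLAT was not called (log2 fold change -0.012, SE 0.10, 95% interval -0.23 to 0.21, edgeR adjusted p = 0.952). The whole of this interval lies above that of PLAU, -0.77 to -0.500. Since PLAU and PLAT are counted in the same libraries, their ratio does not depend on how libraries are scaled. There were 4.07, 4.76 and 3.97 PLAU counts per PLAT count in the shTRIM21 libraries, against 6.497, 6.49 and 6.69 in the shControl libraries. This ratio averaged 4.27 ± 0.431 in shTRIM21 and 6.56 ± 0.115 in shControl (SD, n = 3 each), with no overlap. PLAUR counts per PLAT count averaged 2.46 ± 0.102 in shTRIM21 and 3.16 ± 0.291 in shControl, also with no overlap. PLAU counts per PLAUR count were 1.63, 1.87 and 1.69 in shTRIM21, against 1.89, 2.28 and 2.10 in shControl; the highest shTRIM21 and the lowest shControl library nearly met.

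SERPINE2 encodes protease nexin-1, a secreted and matrix-bound serpin that inhibits thrombin, urokinase, tissue-type activator and plasmin. It lies on chromosome 2 from 223975045 to 224039286 and had the most counts of the members. Its levels were 80.1, 75.3 and 86.3 CPM in the shTRIM21 libraries, against 112, 128 and 124 CPM in the shControl libraries. The highest shTRIM21 library, replicate 3, stayed well below the lowest shControl library, replicate 1. SERPINE2 averaged 80.6 ± 5.50 CPM in shTRIM21 and 121 ± 8.09 CPM in shControl (SD, n = 3 each), a fall of 33.5% (log2 fold change -0.59, SE 0.065, edgeR adjusted p = 1.66e-05). With library sizes alone the SERPINE2 call was lost (edgeR adjusted p = 0.0996, in a range of 8.11e-16 to 0.0996 over 17 alternatives). Among all tested genes, 2.49% had a more negative log2 fold change. PLAU counts per SERPINE2 count were 0.426, 0.503 and 0.406 in shTRIM21, against 0.473, 0.446 and 0.457 in shControl. These ratios overlapped, with shTRIM21 replicate 2 the highest of the 6. Its 2 RefSeq windows held the SP1 word 1 and 2 times and the AP-1 and TEAD words 0 times.

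Of the 4 tested clade B serpins among the members, 1 fell, SERPINB8, where 11.0% of all tested genes were lower. The clade B serpins, of which 5 are members, mostly lack a signal peptide and act inside cells; the product of SERPINB8 inhibits the proprotein convertase furin. SERPINB8 lies in the serpin cluster of chromosome 18, from 63970081 to 64019779, and was the lowest of the tested members at 175, 149 and 216 counts in the shTRIM21 libraries, against 263, 235 and 269 in the shControl libraries. It averaged 4.72 ± 0.953 CPM in shTRIM21 and 6.93 ± 0.517 CPM in shControl (SD, n = 3 each), with no overlap (log2 fold change -0.55, SE 0.15, edgeR adjusted p = 0.0174). Leaving out shTRIM21 replicate 2, the lowest library, ended the call (edgeR adjusted p = 0.0855), and so did leaving out shControl replicate 3 (0.0588) or both shControl replicates 1 and 3 (0.213), in a range of 0.00334 to 0.273 over 17 alternatives.

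SERPINB5 and SERPINB2 lie in the same cluster as SERPINB8, from 63476958 to 63505085 and from 63887705 to 63903888. SERPINB5 encodes maspin, a serpin that does not inhibit proteases and is known as an epithelial tumour suppressor. It had 35.98, 34.4 and 30.4 CPM in the shTRIM21 libraries, against 30.5, 33.5 and 31.1 CPM in the shControl libraries. The groups overlapped, and SERPINB5 was not called (log2 fold change 0.084, 95% interval -0.077 to 0.25, edgeR adjusted p = 0.473). SERPINB8 counts per SERPINB5 count were 0.130, 0.111 and 0.188 in shTRIM21, against 0.228, 0.191 and 0.239 in shControl, close to each other at the nearest libraries but without overlap. SERPINB2, the gene of plasminogen activator inhibitor 2, was listed at 0 in all 6 libraries, so it has no fold change. A row at 0 need not mean an unexpressed gene in these tables, since FBL and RPL7A, genes that nearly all human cells use, were also listed at 0.

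The AP-1 word stood in the promoter windows of PLAUR, SERPINB8, SERPINB5 and SERPINB2, that is, in genes that fell, a gene that was not called and a gene listed at 0. The stretches around it are shown to set these cases side by side, with the word in capitals and 20 bases on either side, all from the plus strand of GRCh38.p14. The SERPINB8 stretches are chr18:63969876-63969922 and chr18:63970033-63970079, with the word at positions -185 and -28 from the start site. The SERPINB5 stretch is chr18:63476792-63476838, with the word at -146, and the SERPINB2 stretch is chr18:63887583-63887629, with the word at -102. A match is a description of letters and not evidence of binding.
SERPINB8, upstream: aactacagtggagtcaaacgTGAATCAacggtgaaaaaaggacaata
SERPINB8, downstream: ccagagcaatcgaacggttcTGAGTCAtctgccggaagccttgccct
SERPINB5: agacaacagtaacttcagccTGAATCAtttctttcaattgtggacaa
SERPINB2: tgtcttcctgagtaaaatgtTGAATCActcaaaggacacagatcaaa

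SERPINB6 and SERPINB9 lie beside each other in a second serpin cluster on chromosome 6, SERPINB9 from 2887270 to 2903309 and SERPINB6 from 2948159 to 2971793. The product of SERPINB6 inhibits trypsin-like proteases and cathepsin G, and that of SERPINB9 inhibits granzyme B, the killing protease of cytotoxic lymphocytes. SERPINB6 had 52.3, 53.5 and 50.9 CPM in the shTRIM21 libraries, against 50.7, 51.2 and 46.5 CPM in the shControl libraries, which overlapped (log2 fold change 0.079, 95% interval -0.051 to 0.21, edgeR adjusted p = 0.394). SERPINB9 had 36.01, 35.997 and 35.6 CPM in shTRIM21, against 40.1, 38.3 and 39.2 CPM in shControl. The SERPINB9 groups did not overlap, but the difference was small and not called (log2 fold change -0.13, SE 0.060, 95% interval -0.26 to -0.00072, edgeR adjusted p = 0.144). SERPINE2 counts per SERPINB6 count, a ratio free of scaling, averaged 1.55 ± 0.144 in shTRIM21 and 2.46 ± 0.225 in shControl (SD, n = 3 each), with no overlap. SERPINB9 overlaps the antisense gene SERPINB9-AS1, which has no row in the tables; of the 7 members that overlap an annotated gene, PLAU is the only one whose partner has a row. SERPINB9 held the SP1 word 2 times, on overlapping bases, and the 4 windows of SERPINB6 held it 0 to 3 times; neither gene had the AP-1 or TEAD word.

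**Figure D2:**
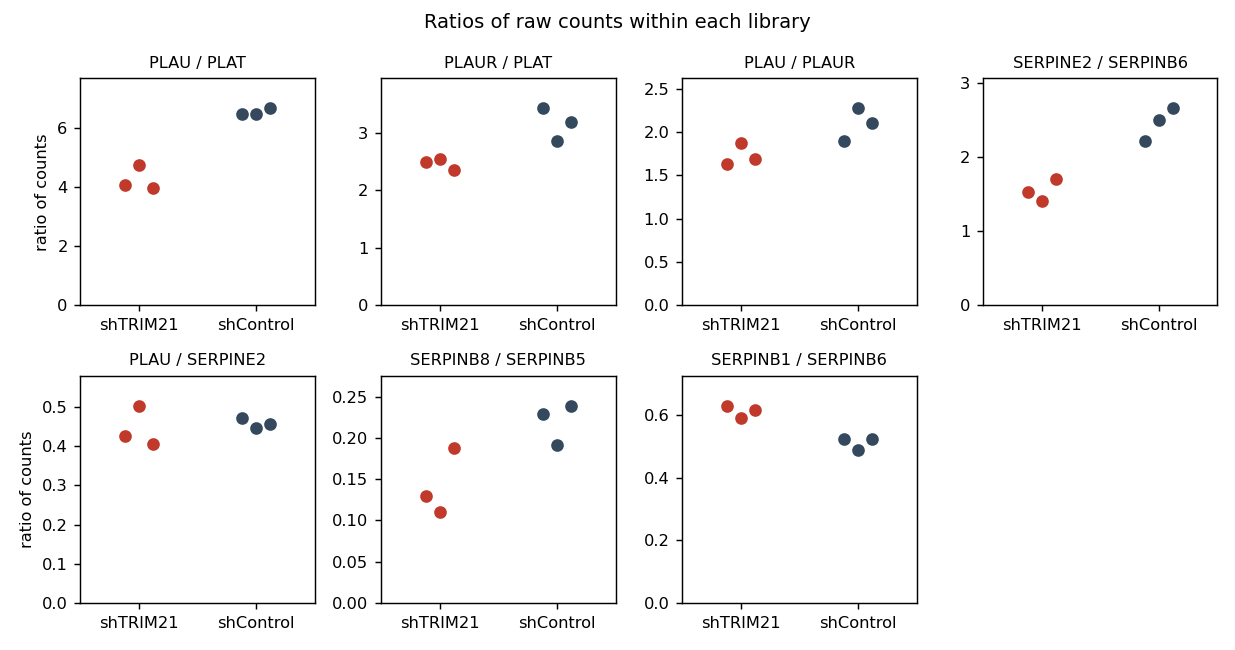
Ratios of raw counts of gene pairs in each library, with shTRIM21 left (red) and shControl right (dark); each point is 1 library. PLAU per PLAT, PLAUR per PLAT and SERPINE2 per SERPINB6 are lower in all 3 shTRIM21 libraries, SERPINB1 per SERPINB6 is higher, and PLAU per SERPINE2 overlaps.

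To compare levels between genes, CPM were divided by the length of all annotated exons in GENCODE 29, giving CPM per kb. This length can exceed that of the transcripts in these cells, so the order is approximate. PLAU was highest at 12.1 ± 0.668 CPM per kb in shTRIM21 and 18.8 ± 0.741 CPM per kb in shControl (SD, n = 3 each). SERPINE2 followed at 9.06 ± 0.619 and 13.6 ± 0.910 CPM per kb, and SERPINB9 at 8.71 ± 0.0617 and 9.52 ± 0.219 CPM per kb. SERPINE2 and SERPINB9 overlapped in shTRIM21 but not in shControl. SERPINB5 stood at 8.53 ± 0.737 and 8.04 ± 0.397 CPM per kb, PLAUR at 4.63 ± 0.0829 and 5.98 ± 0.334, and SERPINB6 at 3.96 ± 0.0988 and 3.74 ± 0.195. PLAT with 1.27 ± 0.0649 and 1.28 ± 0.0475 CPM per kb and SERPINB8 with 0.805 ± 0.162 and 1.18 ± 0.0880 CPM per kb were lowest. In shControl these last 2 genes overlapped, and in shTRIM21 SERPINB8 lay below PLAT in all libraries. By group mean, the order of the 8 members was the same in both arms. Within shTRIM21, however, SERPINB5 overlapped both SERPINE2 and SERPINB9. SERPINB5 lay above both of these genes in shTRIM21 replicate 1 and above SERPINE2 in shTRIM21 replicate 2, so these libraries did not keep the order of the means.

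**Figure D3:**
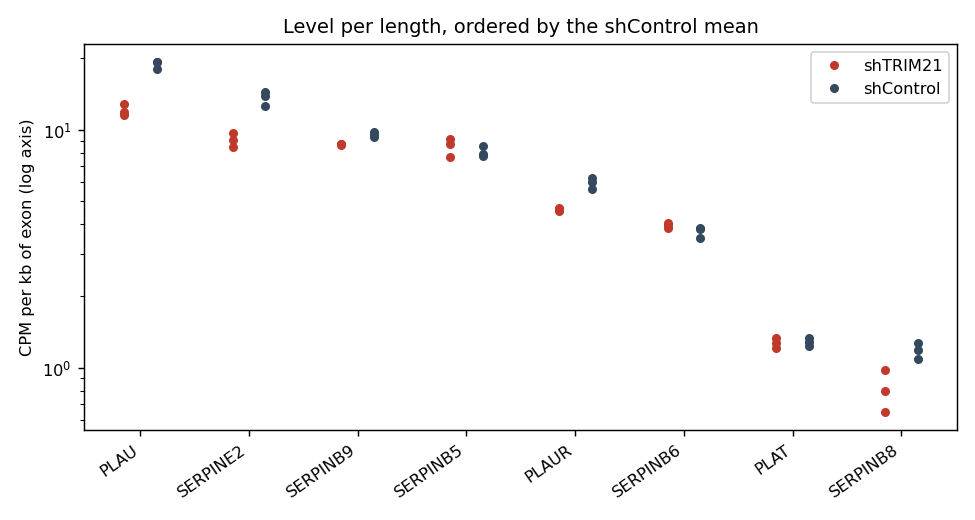
Level in CPM per kb of exon on a log axis for the 8 tested members, ordered by the shControl mean; each point is 1 library, shTRIM21 left (red) and shControl right (dark). PLAU is highest in both arms and SERPINB8 lowest.

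Other genes of plasminogen activation moved both ways. Of 19 genes listed for plasminogen, its receptors and its other inhibitors, 11 were tested, 2 fell and 4 rose. Among all tested genes, 11.0% were lower and 9.77% higher. The list had a median log2 fold change of 0.029, against 0.0054 over all tested genes. S100A10, which with annexin A2 forms a plasminogen-binding complex at the cell surface, fell to 84.9 ± 5.24 CPM in shTRIM21, against 130.4 ± 6.30 CPM in shControl (SD, n = 3 each; log2 fold change -0.62, SE 0.060, edgeR adjusted p = 4.54e-06). Its partner ANXA2 was not called (log2 fold change -0.027, 95% interval -0.15 to 0.093). SERPINF2, the gene of the plasmin inhibitor alpha-2-antiplasmin, fell to 4.60 ± 0.277 CPM in shTRIM21, against 6.78 ± 0.511 CPM in shControl; without shControl replicates 1 and 3 its call was lost (edgeR adjusted p = 0.0889, in a range of 0.00191 to 0.244 over 17 alternatives).

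Genes that rose included LRP1, whose product clears urokinase-inhibitor complexes from the surface, at 9.18 ± 1.74 CPM in shTRIM21 and 6.43 ± 0.305 CPM in shControl (SD, n = 3 each; edgeR adjusted p = 0.014). The LRP1 call was lost without shTRIM21 replicate 3, without shControl replicate 3 or without shControl replicates 1 and 3. The collagen receptor gene MRC2, whose product partners the urokinase receptor, changed by 0.31 (SE 0.099), the matriptase gene ST14, an activator of pro-urokinase, by 0.20 (SE 0.054) and the neuroserpin gene SERPINI1, an inhibitor of tissue-type activator, by 0.46 (SE 0.14) on the log2 scale. The edgeR adjusted p-values were 0.0364 for MRC2, 0.0158 for ST14 and 0.0358 for SERPINI1. The MRC2 call was lost without replicate 2 or 3 of either arm, the ST14 call without shTRIM21 replicate 2 or 3 or shControl replicate 2 and with library sizes alone. The SERPINI1 call was lost without any 1 of the 6 libraries, without shControl replicates 1 and 3 and with DESeq2. Plasminogen itself, PLG, had 0, 0 and 2 counts in the shTRIM21 libraries and 0 in each shControl library. Of the receptor ligands, VTN was listed at 0.

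**Figure D4:**
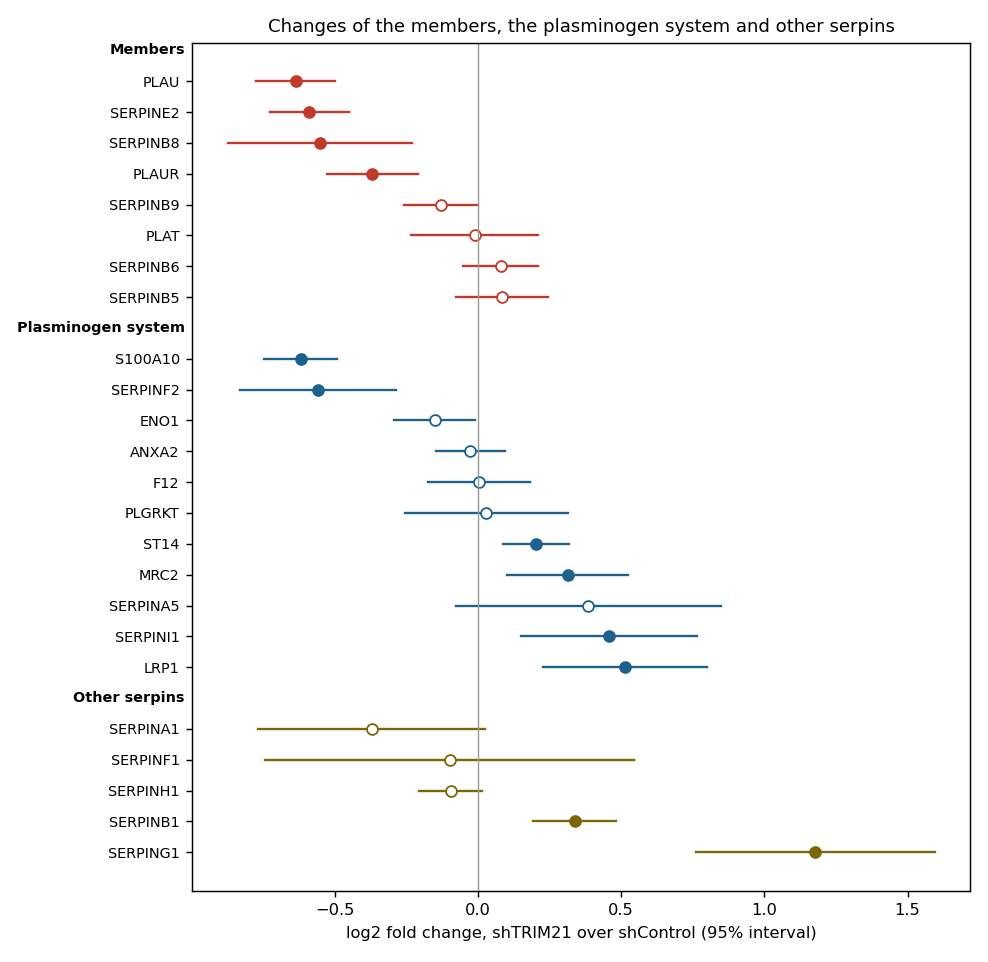
Log2 fold change of shTRIM21 over shControl with its 95% interval for the tested members (red), the tested genes of the plasminogen system (blue) and other tested serpins except SERPINB7 (brown); filled points were called and open points were not. Among the members all filled points lie left of 0, while the plasminogen system has them on both sides.

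Of 16 listed membrane partners of the urokinase receptor, 12 were tested, 7 fell and 2 rose, LRP1 and MRC2 again, where 11.0% of all tested genes were lower and 9.77% higher. Their median log2 fold change was -0.21, against 0.0054 over all tested genes, and with library sizes alone 0.0055, against 0.22. ITGB5, an integrin subunit that pairs with ITGAV to bind vitronectin, changed by -0.53 (SE 0.055, edgeR adjusted p = 9.70e-06), the caveolin gene CAV1 by -0.33 (SE 0.057) and the fibronectin receptor gene ITGA5 by -0.32 (SE 0.062). ITGB1, the beta subunit that pairs with ITGA5, changed by -0.23 (SE 0.052) and was not called when shTRIM21 replicate 2 was left out, and the ITGA5 call was lost without shControl replicates 1 and 3. With library sizes alone all 4 of these calls were lost. Among proteases, several of them known targets of the member serpins, 7 of 16 listed genes were tested; 3 fell and 1, ST14, rose, with a median of -0.066. The kallikrein gene KLK5 fell to 1.12, 1.28 and 1.27 CPM in the shTRIM21 libraries, against 3.26, 4.299 and 3.56 CPM in the shControl libraries (3.03-fold lower, edgeR adjusted p = 6.97e-05). FURIN, the target of the SERPINB8 product, had 67.3, 71.6 and 73.8 CPM in shTRIM21, against 93.996, 80.3 and 88.7 CPM in shControl, and fell (log2 fold change -0.31, SE 0.065, edgeR adjusted p = 0.00404). Without shControl replicates 1 and 3 FURIN was at -0.19 and not called (edgeR adjusted p = 0.157, in a range of 0.000166 to 0.754 over 17 alternatives). The trypsin gene PRSS3 was called lower at -0.31 (SE 0.090, edgeR adjusted p = 0.026), a call lost without replicate 2 of either arm, shTRIM21 replicate 3, shControl replicate 1 or both shControl replicates 1 and 3, and with upper-quartile factors or library sizes alone. GZMB and CTSG were listed at 0.

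Serpins outside the member list did not move as a block. SERPINB1, the nearest protein-coding gene to SERPINB9 on its other side and encoding an inhibitor of neutrophil elastase, rose: it had 32.99, 31.6 and 31.4 CPM in the shTRIM21 libraries, against 26.5, 25.1 and 24.4 CPM in the shControl libraries (log2 fold change 0.34, SE 0.069, edgeR adjusted p = 0.00292). SERPINB1 was called under all 17 alternatives, and its counts per SERPINB6 count averaged 0.613 ± 0.0203 in shTRIM21 and 0.513 ± 0.0198 in shControl (SD, n = 3 each). SERPINB7, in the cluster of chromosome 18, passed the filter only through shControl and was listed at 0 in each shTRIM21 library, against 13 counts in each shControl library. With a limit of 3 counts per library in place of 0, this is at least 4.48-fold lower in shTRIM21, at a level of 0.352 CPM in shControl. The 6 other listed clade B serpins had at most 1 count in any library. Outside clade B, 7 of 20 listed serpins were tested, 1 fell, SERPINF2 again, and 2 rose, SERPINI1 again and SERPING1. Among all tested genes, 11.0% were lower and 9.77% higher. SERPING1, the gene of the C1 complement inhibitor, rose to 3.27 ± 0.0280 CPM in shTRIM21, against 1.45 ± 0.161 CPM in shControl (SD, n = 3 each; log2 fold change 1.18, SE 0.20, edgeR adjusted p = 0.000702).

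Transcription factors known to act on these promoters moved both ways as well. Of 25 listed, all tested, 8 fell and 3 rose, where 11.0% of all tested genes were lower and 9.77% higher. The median log2 fold change of the 25 was -0.085, against 0.0054 over all tested genes. The AP-1 gene FOSL1 fell to 115, 122 and 114 CPM in the shTRIM21 libraries, against 153, 164 and 180 CPM in the shControl libraries (log2 fold change -0.50, SE 0.062, edgeR adjusted p = 5.50e-05). Its relatives, the AP-1 genes JUN (log2 fold change -0.12), JUNB (0.13), JUND (0.064), FOS (0.40), FOSB (-0.063) and FOSL2 (0.023) were not called. FOS was just past the threshold (edgeR adjusted p = 0.0546). The groups did not overlap for FOS, JUN and JUNB, nor for 37.7% of all tested genes. NFKB1 changed by -0.49 (SE 0.071), the TEAD factor gene TEAD4 by -0.49 (SE 0.094) and KLF4 by -0.42 (SE 0.080), while EGR1 changed by 0.58 (SE 0.070), ETS2 by 0.49 (SE 0.061) and ELF3 by 0.33 (SE 0.063). With edgeR's test the adjusted p-values of these 6 genes ran from 4.21e-05 to 0.00206. The other listed TEAD factor gene, TEAD1, was not called (log2 fold change 0.14, edgeR adjusted p = 0.0846). It was more abundant, at 134 CPM in shTRIM21 and 121 CPM in shControl, against 17.7 and 24.8 CPM for TEAD4. The SP1 gene was called lower at -0.21 (SE 0.058, edgeR adjusted p = 0.0201).

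Over the 6 libraries, the genes most like PLAU among 10308 well-measured protein-coding genes were DHX30, CAVIN1 and SMC4, with Pearson correlations of log2 CPM of 0.9986, 0.998 and 0.998. Those most like PLAUR were CNN2, SLC7A6 and GNA11, at 0.997, 0.996 and 0.995. These correlations hold the difference between the groups, come from 6 points and were picked from many, so they are a description. DHX30 was not called, and the other 5 genes changed by -0.29 to -0.16 on the log2 scale, less than PLAU or PLAUR.

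The way libraries are scaled moved all members together. With library sizes alone, which count ribosomal RNA reads as depth, the median of all tested genes was 0.22 on the log2 scale and none of the members was called. PLAU was then at -0.43 (edgeR adjusted p = 0.0557, in a range of 3.09e-16 to 0.0557 over 17 alternatives). Relative to the median of all tested genes in that scaling, PLAU was at -0.65, SERPINE2 at -0.60, SERPINB8 at -0.54 and PLAUR at -0.37, close to their values with TMM. SERPINB9 and PLAT, neither of them called, changed sign. C10orf55 was at -0.46 (edgeR adjusted p = 0.0506, the highest over its alternatives), and of the other named genes called lower with TMM, KLK5 and VIM were still called lower. SERPINB7, at 0 in every shTRIM21 library, is not counted among them. Calls over all genes were 47.0% higher with TMM, 62.1% with upper-quartile factors and 93.0% with library sizes alone.

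**Figure D5:**
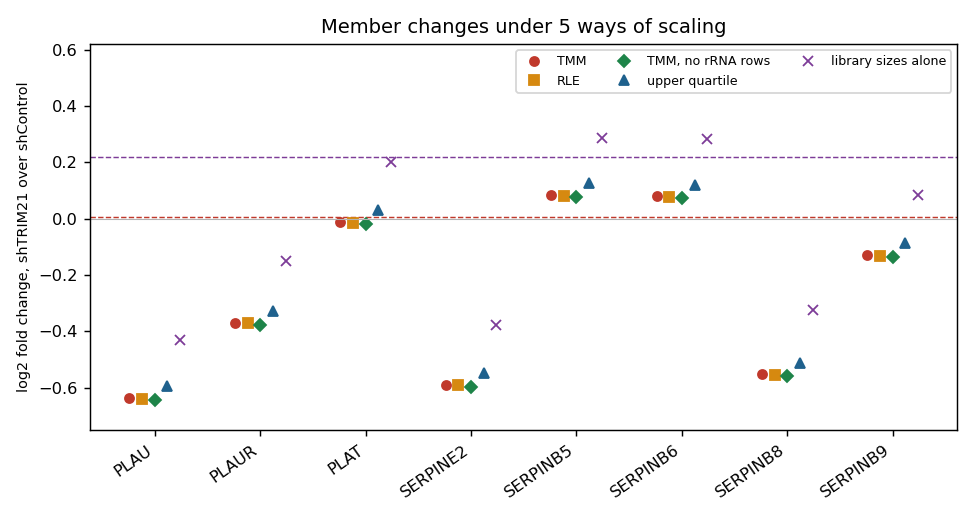
Log2 fold change of shTRIM21 over shControl for each tested member under 5 ways of scaling the libraries; dashed lines are the medians of all tested genes with TMM factors (red, 0.0054) and with library sizes alone (purple, 0.22). Library sizes alone lift every member by about the same amount, and the order of the members stays nearly as it was.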

How the data were processed

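Total RNA of 3 shTRIM21 and 3 shControl libraries was analysed from raw read counts per gene symbol, deposited by the authors without normalization, 1 table of 28278 rows per library. Per the submitters' processing notes the tools were TopHat2, edgeR 3.38.1 and limma 3.52.2 and the build hg38, with their roles left out; which program, annotation and strand setting made the counts is not given in the sources used here. Groups came from the titles. Counts were fitted with edgeR 4.0.16 (R 4.3.3): filterByExpr (minimum count 10, total 15), TMM factors, quasi-likelihood F test on all 6 libraries, Benjamini-Hochberg over 15131 genes, threshold 0.05. SE is the log2 fold change over the square root of F, and CPM use TMM-scaled sizes. With 3 libraries against 3, an exact permutation test of a single value cannot go below 0.1, so ratios are given without a test. Most ratios set a called gene over an uncalled one from the same counts, so they are no separate support for those calls. Of the symbols, 26998 matched RefSeq (GRCh38.p14), the source of positions. Alternatives were other scalings and filters, DESeq2 1.42.0, limma 3.58.1 voom, a replicate block and leaving out libraries. The fit was also run on simulated counts in which far fewer genes changed than were called here, which is no measure of its errors in these data.

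The members and all gene lists were chosen with earlier results of these data known. 1 listed gene is not reported here and was left out of the list counts. Named were the members, TRIM21, up to 4 called genes per list and direction by smallest p, clade B serpins with at least 10 counts in a library, genes overlapping or adjoining members, and the 3 genes most correlated with PLAU and with PLAUR (mean of at least 5 CPM). Members of the cell-marker lists, listed genes at 0, uncalled AP-1 genes or neighbours, TEAD1 and the SP1 gene were named besides, after their values were seen. Statements on named genes under the alternatives leave out TEAD1 and the SP1 gene. Over all tested rows together, replicates within an arm differed by more than counting noise. Those rows included ribosomal RNA, whose share differed between libraries, so this cannot tell technical from biological repeats. Each library was entered in the fit on its own.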

Additional observations from a re-analysis of the deposited data

How the results depend on the processing

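With library sizes alone 1969 genes and 0 members were called, against 3146 and 4 with TMM; PLAU was at -0.43, PLAUR at -0.15, SERPINE2 at -0.38, SERPINB8 at -0.32 and TRIM21 at -0.34 on the log2 scale. The sign turned for SMC4, to 0.048, and SLC7A6, to 0.0072. That scaling counts ribosomal RNA reads as depth, and their share was highest in shControl replicates 1 and 3. Without these replicates, a choice made after seeing the data, 1958 genes and 2 members were called, PLAUR was at -0.29 and SERPINB8 at -0.44; the lone shControl library is then assumed to vary like shTRIM21, and the cause of the lost calls was not tested. Leaving out 1 library at a time gave 1844 to 2592 called genes, the fewest without shTRIM21 replicate 2, 3 to 4 members lower, and SERPINB8 at -0.71 to -0.43. With the replicate number as a block 2905 genes and 4 members were called; same-numbered libraries did not deviate together (correlations of -0.080 to 0.0057, none highest with its own number), so the numbers were not taken as pairs. Under the block SMC4 and SERPINI1 lost their calls and no other named gene did (SERPINI1: edgeR adjusted p = 0.0530, against 0.0358 without it). Members and TRIM21 kept their side of the threshold in 144 of their values under alternatives and lost the call in 9. The other named genes kept their side in 570, lost the call in 71 and turned sign in 2. A gene called in neither fit was counted as kept even where its sign turned, as for PLAT at 0.20 with library sizes alone. SERPINB8, with the fewest counts of the tested members, was the least certain call among them.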

Other observations

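PLAUR belongs to the family of three-finger proteins, small extracellular domains often held by a lipid anchor. Of 13 other listed members of this family 9 were tested, 1 fell and 1 rose. This is near the shares over all tested genes, 11.0% lower and 9.77% higher. The family had a median log2 fold change of 0.15, against 0.0054 over all tested genes. LYPD1 fell to 1.87, 2.12 and 2.09 CPM in the shTRIM21 libraries, against 4.53, 3.02 and 3.23 CPM in the shControl libraries (log2 fold change -0.83, SE 0.20, edgeR adjusted p = 0.00906). Without shControl replicate 1, its highest library, the call was lost (edgeR adjusted p = 0.0542). LYPD6B rose to 2.95 ± 0.161 CPM in shTRIM21, against 1.85 ± 0.320 CPM in shControl (SD, n = 3 each; edgeR adjusted p = 0.0283), a call lost without shTRIM21 replicate 1 or 2 or shControl replicate 2 or 3. LY6E, the most abundant at 305 ± 6.10 CPM in shTRIM21 and 312 ± 2.06 CPM in shControl, and the complement regulator gene CD59 were not called.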
